A study of Homo sapiens with 4 samples.

Results

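The mRNAs of the cytosolic ribosomal proteins were examined gene by gene in RNA that was recovered with FLAG-tagged ORC1 from nuclei of HCT116 cells. ORC1 is a subunit of the origin recognition complex, which marks the sites where DNA replication starts, and HCT116 is an established human colorectal carcinoma line. Members were the protein-coding genes whose GENCODE v44 symbol is RPS or RPL followed by a number (with an optional A, X or L), RPLP0, RPLP1, RPLP2 or RPSA, matched by Ensembl identifier to the deposited table of read counts. This gave 84 of the 63677 genes in the table, 32 for the small and 52 for the large ribosomal subunit, and 81 of them passed the filter on low counts along with 14645 genes in all.

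All 4 libraries came from HCT116 cells grown in RPMI and transfected for 48 h with a pcDNA3.1 plasmid encoding ORC1-3xFLAG. The 2 ORC1-FLAG IP libraries held RNA precipitated by the M2 FLAG antibody without crosslinking, and the 2 Input libraries held RNA of the nuclear extract, with replicate 1 and replicate 2 in each group. Untransfected cells and a control antibody were not among these libraries, so RNA held by the antibody or the beads cannot be told apart from RNA held by ORC1, and the tagged protein was made from a plasmid at levels the cell does not set. Nothing in the labels says whether the replicates were separate cultures, so p-values measure only the spread between these libraries. The IP libraries totalled 27483148 and 20280445 counts, and the Inputs 14677002 and 9213877. ORC1 itself was at 1107 and 18522 CPM in IP replicates 1 and 2, against 333 and 5036 CPM in Input. CPM are counts relative to the library total after TMM scaling, which sets the typical gene level between libraries. The replicates thus differed widely in ORC1 RNA, and the log2 fold change of ORC1, 1.87 ± 1.42 (SE), did not pass edgeR's test (adjusted p = 0.374). With the replicates treated as pairs it was 1.80 and ORC1 was enriched (edgeR adjusted p = 3.16e-06). Epithelial markers EPCAM, CDH1, KRT8, KRT18 and KRT19 lay between 46.7 and 2054 CPM and CDX2 between 8.86 and 11.1 CPM, whereas CDX1 was at 0 and VIL1 at most at 0.284 CPM, and the markers of leukocytes, endothelium and hepatocytes (PTPRC, CD3E, PECAM1, ALB) were at most at 0.227 CPM. VIM was between 4.26 and 8.18 CPM and COL1A1 between 7.89 and 26.7 CPM, higher in IP.

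Each ribosome is built from a small subunit, which reads the codons, and a large subunit, which joins the amino acids, and each subunit combines ribosomal RNA with a fixed set of small basic proteins. The mRNAs of these proteins are short, abundant and mostly begin with a terminal oligopyrimidine (TOP) tract, through which the mTOR pathway sets their translation. Many of the genes carry small nucleolar RNAs (snoRNAs) in their introns, and their mRNAs have left many processed pseudogenes in the genome. The study reported tandem GAA repeats as a common feature of RNAs bound by ORC1. From the positions of crosslinking peaks and from gel shifts, it held that binding did not go through these repeats. Here the trinucleotide GAA, a different measure, was counted along the sense strand of each coding sequence, in all frames.

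The coding sequences at either end of the ranking by IP over Input differed visibly in this trinucleotide. Below are the windows of 150 bases, in frame, that hold the most GAA in the 3 members with the highest and the 3 with the lowest fold change, 5′ to 3′ from the canonical transcripts of GENCODE v44 on GRCh38, with GAA in capitals. All of them are exonic and coding.
RPS24: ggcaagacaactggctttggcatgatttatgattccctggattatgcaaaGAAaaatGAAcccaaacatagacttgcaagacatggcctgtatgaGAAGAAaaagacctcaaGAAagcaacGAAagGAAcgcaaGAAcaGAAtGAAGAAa
RPL14: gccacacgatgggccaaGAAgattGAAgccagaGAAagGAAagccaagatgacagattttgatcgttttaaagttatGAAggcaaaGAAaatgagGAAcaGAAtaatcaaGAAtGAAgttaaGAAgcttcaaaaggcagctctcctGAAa
RPL5: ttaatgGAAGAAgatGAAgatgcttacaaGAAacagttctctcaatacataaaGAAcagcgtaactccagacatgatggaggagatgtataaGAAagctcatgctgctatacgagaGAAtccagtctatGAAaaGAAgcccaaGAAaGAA
RPS16: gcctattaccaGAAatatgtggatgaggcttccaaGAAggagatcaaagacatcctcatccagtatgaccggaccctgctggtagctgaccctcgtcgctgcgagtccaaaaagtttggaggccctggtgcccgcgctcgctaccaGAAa
RPS29: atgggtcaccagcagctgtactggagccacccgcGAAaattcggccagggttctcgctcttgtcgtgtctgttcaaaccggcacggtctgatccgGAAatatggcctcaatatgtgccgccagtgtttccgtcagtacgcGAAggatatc
RPS21: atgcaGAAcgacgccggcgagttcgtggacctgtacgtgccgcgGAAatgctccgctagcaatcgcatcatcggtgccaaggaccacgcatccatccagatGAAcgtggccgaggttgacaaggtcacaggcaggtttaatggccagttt
The windows of RPS24, RPL14 and RPL5 hold 11, 12 and 11 GAA, and those of RPS16, RPS29 and RPS21 hold 3 each. Most of these GAA span the junction of neighbouring codons, with G as the last base of a codon, as in a lysine codon AAG followed by a codon that starts with AA. In the RPL14 window 8 of 12 were of this kind and 3 were glutamate codons, and in the RPS16 and RPS21 windows all 3 were of this kind. The windows were picked for the most GAA, and a longer coding sequence offers more windows. Coding lengths were 390, 645 and 891 bases in RPS24, RPL14 and RPL5 and 438, 168 and 249 in RPS16, RPS29 and RPS21. Over the whole coding sequence, GAA in any frame was at 46.2, 34.1 and 35.9 against 11.4, 17.9 and 16.1 per kilobase. The genes lie at chr10:78033760-78056813 on the plus strand (RPS24), chr3:40457292-40468587 on the plus strand (RPL14), chr1:92832013-92841924 on the plus strand (RPL5), chr19:39433137-39435949 on the minus strand (RPS16), chr14:49570984-49599164 on the minus strand (RPS29) and chr20:62387103-62388520 on the plus strand (RPS21).

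The same 6 mRNAs are alike at their start. Their first 20 bases are shown with the leading run of pyrimidines in capitals, since most members share such a start.
RPS24: CTCTTTTCCTCCTTggctgt
RPL14: CTTCTCgcctaacgccgcca
RPL5: CCTTTTCCCaccccctagcg
RPS16: CCTTTTCCggttgcggcgcc
RPS29: CTTCCTTTTacctcgttgca
RPS21: CCTTTCTCTCTCgcgcgcgg
The run is longest in RPS24 (14 bases) and shortest in RPL14 (6 bases), both among the enriched members, so the TOP tract does not part the 3 highest from the 3 lowest. A start of C followed by at least 4 further C or T was found in 59 of the 84 members (70.2%) and in 919 of 20046 canonical protein-coding transcripts (4.58%).

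IP was compared with Input to ask which nuclear RNAs came down with ORC1-FLAG. Ribosomal protein mRNAs did not move as a block: 9 of the 81 tested were enriched, 32 were depleted and 40 were not called. A call required that edgeR's adjusted p was below 0.05 and that the log2 fold change was larger than 1 in size. The 9 enriched make 11.1% of the members, against 10.5% of all genes tested, whereas the 32 depleted make 39.5%, against 8.3% of all genes. The log2 fold changes ran from -3.35 to 1.67, with a median of -0.57 and quartiles of -1.38 and 0.30, beside a median of 0.0079 for all genes and 0.0776 for the 12542 protein-coding genes tested. The share of enriched members was thus close to that of all genes, while the share of depleted members was several times that of all genes. With replicates 1 and 2 treated as pairs, the same 9 and 32 were called, beside 13.4% of all genes enriched and 13.4% depleted. The calls compare IP with Input, so depleted means recovered less than the typical gene and does not mean less expressed. These are bulk libraries, so they do not show how the mRNAs were spread over cells.

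The enriched count turned on single libraries and on the scaling. RPS24 alone was called enriched when IP replicate 1 or Input replicate 2 was left out, and with scaling by library size only, whereas 13 were enriched when IP replicate 2 was left out and 14 when Input replicate 1 was. Depleted members numbered 24, 36, 43, 23 and 25 in the same order of settings, so depletion of at least 23 members held in each of these fits. glmTreat, whose null hypothesis is a log2 fold change of at most 1 in size, called 0 members enriched and 0 depleted (5 and 22 at an unadjusted p below 0.05).

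The replicates ranked the members alike. The log2 ratio of IP to Input within each replicate (scaled CPM plus 0.5) had a median of -0.53 in replicate 1 and -0.52 in replicate 2, and across the 81 members the 2 ratios correlated at Spearman rho = 0.967 and Pearson r = 0.972, as a description over genes that share libraries. The median distance between the ratios of a member was 0.221, and 61 members differed by less than 0.5. RPS16 was farthest apart, with ratios of -4.08 and -2.24, followed by RPS27L with -1.72 and -0.66. Both ratios were above 0 for 25 members and below 0 for 52, and they had different signs for 4. In terms of levels, both IP libraries stood above both Inputs for 19 members and below them for 43, compared with 33.3% and 31.7% of all genes.

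**Figure D1:**
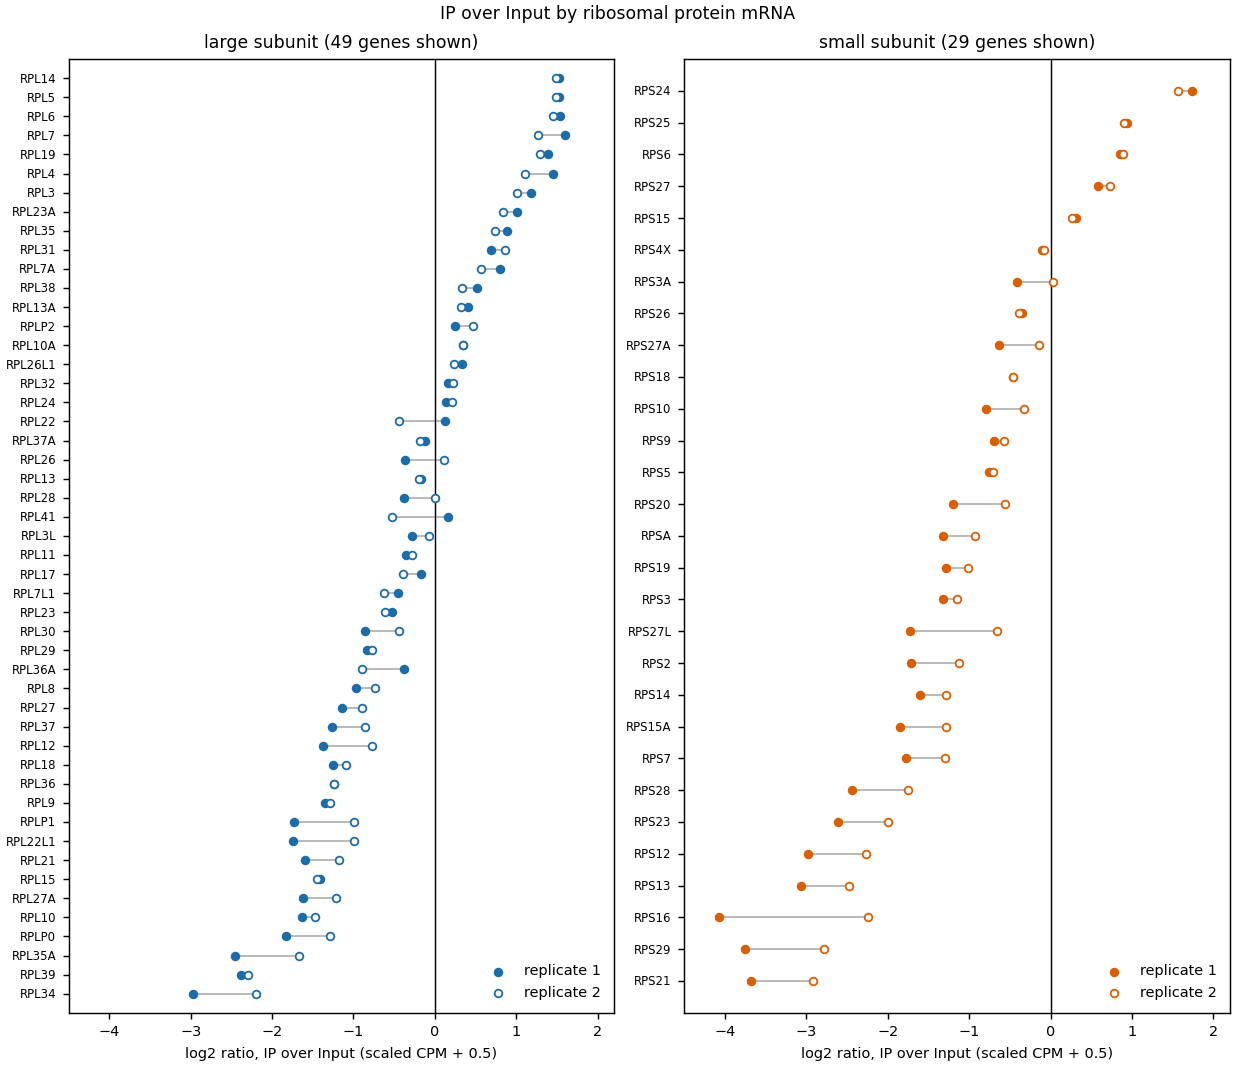
Log2 ratio of IP over Input (TMM-scaled CPM plus 0.5) for the ribosomal protein mRNAs named on the axes, large subunit on the left and small subunit on the right, ordered by fold change. Filled points are replicate 1 and open points replicate 2, joined by a line; the ratios run from about 1.74 for RPS24 to -4.08 for RPS16, and most lines are short compared with the range.

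The enriched mRNAs included RPS24 of the small subunit and RPL3, RPL4, RPL5, RPL6, RPL7, RPL14 and RPL19 of the large subunit. RPS24, a protein whose gene is mutated in some patients with Diamond-Blackfan anaemia, was at 2274 and 1288 CPM in IP replicates 1 and 2 and at 682 and 433 CPM in the Inputs. Its lowest IP level was above its highest Input level, and it was enriched by 1.67 ± 0.391 on the log2 scale (SE, 2 libraries in each group, edgeR adjusted p = 0.0266). It had the highest fold change of the 81 members tested.

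Among the large subunit mRNAs, RPL5, which binds the smallest ribosomal RNA together with RPL11 and is a known partner of MDM2, was at 3012 and 1867 CPM in IP against 1046 and 663 CPM in Input. RPL14 was at 1459 and 861 CPM in IP against 506 and 307 CPM in Input. RPL6 was at 1591 and 925 CPM in IP against 549 and 337 CPM in Input. For all 3, both IP libraries lay above both Inputs, and the log2 fold changes were 1.51 for RPL5 and RPL14 and 1.5 for RPL6, with SEs of 0.377 to 0.385. RPL19, which forms a bridge between the subunits, was at 3643 and 2456 CPM in IP against 1392 and 1003 CPM in Input. RPL7 was at 2289.8 and 1184 CPM in IP against 754 and 489 CPM in Input. Within each group the level in replicate 1 was the higher for each of these mRNAs, in IP and in Input alike, so that the replicate ratios lay closer together than the levels.

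RPL3 and RPL4, the longest of the widely expressed ribosomal proteins, were also enriched. RPL4, which lines the tunnel through which the new peptide leaves, was at 4166 and 2479.8 CPM in IP against 1520.4 and 1154 CPM in Input. RPL3, which lies near the peptidyl transferase centre, was at 2579 and 2060.0 CPM in IP against 1137 and 1026 CPM in Input. The log2 fold changes were 1.31 ± 0.362 for RPL4 and 1.10 ± 0.289 for RPL3, and over the enriched members named here the edgeR adjusted p ran from 0.0266 to 0.0420. RPL3 was the smallest change called. RPL23A (0.94) and RPS25 (0.92) lay just under the required fold change, RPS25 with an edgeR adjusted p of 0.0491.

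The lowest fold changes belonged mostly to the small subunit: RPS21, RPS29, RPS16, RPS13, RPS12, RPS23 and RPS28, with RPL34 and RPL39 of the large subunit. RPS21 was at 13.3 and 17.8 CPM in IP against 177 and 139 CPM in Input. RPS29, a zinc-binding protein of the subunit's head, was at 7.44 and 11.1 CPM in IP against 107 and 79.1 CPM in Input. RPS16, whose tail reaches the transfer RNA in the P site, was at 23.8 and 49.2 CPM in IP against 410.2 and 234 CPM in Input. The highest IP level was far below the lowest Input level in each, and the log2 fold changes were -3.35 ± 0.284, -3.33 ± 0.308 and -3.15 ± 0.451, the last with the largest SE, as its IP libraries differed most.

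RPS13 was at 46.3 and 49.9 CPM in IP against 391 and 281 CPM in Input. RPS12 was at 43.96 and 64.6 CPM in IP against 349 and 312 CPM in Input. RPS23, which sits at the decoding centre, was at 37.0 and 33.3 CPM in IP against 228 and 134 CPM in Input. Their log2 fold changes were -2.81, -2.61 and -2.37, again with no overlap of the groups. RPL34 was at 36.4 and 39.3 CPM in IP against 290.0 and 182.5 CPM in Input (log2 fold change -2.65). RPL39, a very short protein at the exit tunnel, was at 6.09 and 7.33 CPM in IP against 33.9 and 37.8 CPM in Input (-2.42). In each of these mRNAs the highest IP level was below the lowest Input level, and the edgeR adjusted p was 0.0105 or 0.0107 for each of the 9 lowest.

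RPS28 needs a caution. It was at 12.7 and 16.4 CPM in IP against 71.3 and 56.5 CPM in Input (log2 fold change -2.14 ± 0.257). Annotation on the opposite strand overlaps 20.6% of its exonic bases, and the counts of its annotated pseudogenes came to between 67.2% and 89.2% of its own. RPS28P7, which held nearly all of them, was depleted as well (log2 fold change -2.05, edgeR adjusted p = 0.0121), and how far reads of the parent and the copy were exchanged was not tested.

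**Figure D2:**
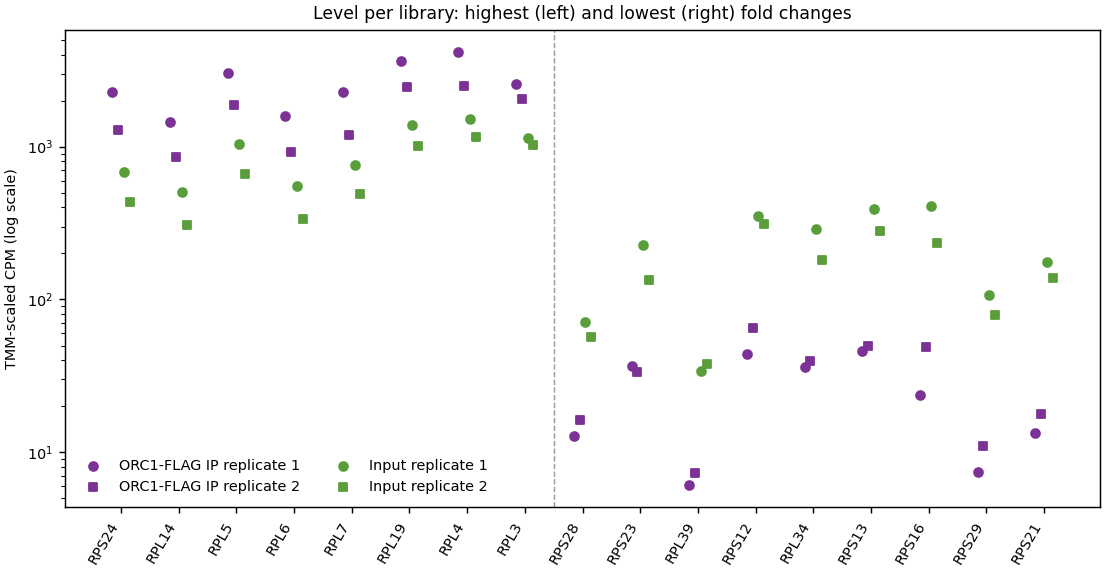
TMM-scaled CPM (log axis) of members with the highest (left of the dashed line, 8 shown) and the 9 with the lowest log2 fold change (right) in each of the 4 libraries; circles are replicate 1 and squares replicate 2, purple IP and green Input. Every IP point lies above both Input points of its gene on the left and below both on the right, and the Input levels on the left, from 307 to 1520.4 CPM, were mostly higher than those on the right, from 33.9 to 410.2 CPM.

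The other 23 depleted members had log2 fold changes between -2.11 (RPL35A) and -1.03 (RPL27). RPL27 (-1.03) was the smallest change called, and RPS20 (-0.88, edgeR adjusted p = 0.0485) passed the p but not the fold. Without IP replicate 1 the calls lost included RPL12, RPL27, RPL37, RPLP1, RPS19, RPS27L and RPSA. Without IP replicate 2 they included RPL15, RPL18, RPL27, RPL36, RPL37, RPS19, RPS3 and RPSA. All 9 of the lowest kept their call when any single library was left out.

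Small subunit mRNAs had the lower values. Of 31 tested, 2 were enriched and 15 depleted with a median of -0.88, and of the 50 large subunit mRNAs 7 were enriched and 17 depleted with a median of -0.32. The difference of the medians, small minus large, was -0.56, but it varied between replicates with an SD of 0.413: the medians were -1.20 and -0.36 in replicate 1 and -0.66 and -0.41 in replicate 2. The difference of the subunits is therefore not much larger than its spread between the replicates. Both subunits reached from strong depletion to clear enrichment, from -3.35 to 1.67 in the small and from -2.65 to 1.51 in the large.

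RPLP0, RPLP1 and RPLP2 form the stalk that recruits the translation GTPases. RPLP0 was at 209 and 203 CPM in IP against 741 and 498 CPM in Input, and was depleted (log2 fold change -1.59 ± 0.291, edgeR adjusted p = 0.0149). RPLP1 was at 89.8 and 111 CPM in IP against 300.1 and 222 CPM in Input and was depleted too (-1.38 ± 0.271, edgeR adjusted p = 0.0174). RPLP2 was at 590.2 and 526 CPM in IP against 498 and 380 CPM in Input, and its log2 fold change of 0.34 ± 0.268 did not pass (edgeR adjusted p = 0.386) and was -0.26 with scaling by library size only. Its groups did not overlap, unlike those of RPL11, the partner of RPL5, which was at 784 and 577 CPM in IP against 1006 and 703 CPM in Input (-0.33 ± 0.310) and was not called.

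RPS19, RPS14, RPSA and RPL10, named for their known roles, were all depleted. RPS19, the gene most often mutated in Diamond-Blackfan anaemia, was at 232 and 223 CPM in IP against 566 and 452 CPM in Input (log2 fold change -1.17 ± 0.256). RPS14, lost in the 5q deletion syndrome, was at 136 and 127 CPM in IP against 414 and 310.4 CPM in Input (-1.46 ± 0.262). RPSA, also known as a laminin receptor, was at 149 and 148 CPM in IP against 371 and 283 CPM in Input (-1.14 ± 0.256). In all 3 the groups did not overlap, though RPS19 and RPSA lost the call in 3 of the 4 fits that leave out a library. RPL10, which is added late to the large subunit, was at 127 and 145 CPM in IP against 397 and 402 CPM in Input (-1.56 ± 0.244, edgeR adjusted p = 0.0117). Opposite-strand annotation covers 50.5% of the exonic bases of RPL10, and whether the counting used strand is not given in the sources used here.

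RPS6, RPS27A, RPL41 and RPS4X were not called with all libraries. RPS6, the substrate of the S6 kinases, was at 2323 and 1466 CPM in IP against 1284 and 790.0 CPM in Input (log2 fold change 0.87 ± 0.372, edgeR adjusted p = 0.133), with both IP libraries above both Inputs. With the replicates treated as pairs, RPS6 had 0.87 (edgeR adjusted p = 0.000795) and missed the call only by its fold change. It was called enriched when IP replicate 2 (1.21) or Input replicate 1 (1.3) was left out, and had 0.54 without IP replicate 1 and 0.41 without Input replicate 2. RPS27A, made as a fusion with ubiquitin, was at 389 and 345 CPM in IP against 603 and 379 CPM in Input (-0.42 ± 0.302). RPL41, the shortest ribosomal protein, was at 22.7 and 24.1 CPM in IP against 20.2 and 34.8 CPM in Input (-0.24 ± 0.298). The groups of RPS27A and RPL41 overlapped, and the value of RPL41 was 0.0591 without Input replicate 2. RPS4X, encoded on the X chromosome, was at 913 and 643 CPM in IP against 982 and 681 CPM in Input (-0.10 ± 0.318), and its value was above 0 without IP replicate 2 (0.18) or without Input replicate 1 (0.23).

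Paralogs were compared with their parent genes, with levels given per kilobase of the canonical transcript where genes are set side by side. RPL22L1 was at 65.8 and 75.7 CPM in IP against 221 and 151 CPM in Input and was depleted (log2 fold change -1.40 ± 0.274, edgeR adjusted p = 0.0175), whereas RPL22 was at 52.0 and 36.7 CPM in IP against 47.5 and 50.0 CPM in Input (-0.14 ± 0.248). RPS27L was at 11.9 and 14.5 CPM in IP against 40.3 and 23.3 CPM in Input and was depleted (-1.27 ± 0.313, edgeR adjusted p = 0.0301), beside 394 and 263 CPM in IP against 262 and 159 CPM in Input for RPS27 (0.64 ± 0.339). In these 2 pairs the paralog was depleted and the parent was not called, and the difference between the genes was not tested. RPS27L lost its call when IP replicate 1 (-1.09) or Input replicate 1 (-0.79) was left out, and RPS27 was enriched without Input replicate 1 (1.08) and had 0.17 without Input replicate 2. Per kilobase of transcript, RPL22L1 exceeded RPL22 in both Inputs (116 and 79.3 against 23.0 and 24.2 CPM per kilobase), while RPS27L was far below RPS27 (6.59 and 3.82 against 744 and 452). The canonical transcript of RPS27L has 6110 bases and that of RPS27 has 352. The gap per kilobase therefore also holds this difference in length and depends on the transcript chosen.

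The remaining paralogs were low or not called. RPL26L1 was at 29.1 and 21.0 CPM in IP against 23.0 and 17.7 CPM in Input (log2 fold change 0.29 ± 0.266), and its parent RPL26 was at 367 and 336 CPM in IP against 474 and 311 CPM in Input (-0.16 ± 0.289). RPL7L1, at 184 and 128 CPM in IP against 252 and 198 CPM in Input, was not called (-0.53 ± 0.282), unlike RPL7. RPL3L, the form of skeletal muscle and heart, was under 1 CPM in every library, so its fold change of -0.31 ± 0.725 says little beside that of RPL3. RPL39L had 0 counts in all 4 libraries, which allows up to 3 counts in each, and RPL10L had 1 count, in IP replicate 1; neither was tested.

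Some widely expressed members were also hardly counted. RPL36A and RPL17 had 38 to 107 and 50 to 61 counts per library, and counts of their pseudogenes came to between 34.1% and 87.9% and between 50.8% and 155% of their own. The readthrough genes RPL36A-HNRNPH2, RPL17-C18orf32 and RPS10-NUDT3, which share exons with members, were listed at 0 in all libraries. The values of RPL36A and RPL17 are thus unsafe as measures of these mRNAs, and the reason was not tested.

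The abundance of the members in Input spread widely too. Per kilobase of transcript, the mean Input level of the members tested ran from 0.279 CPM (RPL3L) to 1625 CPM (RPL19), with a median of 395 CPM. These values depend on the canonical transcript chosen, which ran from 295 to 7573 bases among the members tested. RPL14, whose canonical transcript has 7136 bases, was at 70.9 and 43.0 CPM per kilobase in Inputs 1 and 2. RPL19 was at 1889 and 1361 CPM per kilobase in Inputs 1 and 2 and RPS18, the next below it, at 1506 and 1237, so the ranges of these neighbours overlapped. RPL19 was enriched, while RPS18 (log2 fold change -0.46) was not called. The fold change correlated with this Input level at Spearman rho = 0.281 across the 81 members, a value that shares the Input libraries. With the Input level taken from the other replicate, rho was 0.261 for the ratio of replicate 1 and 0.284 for that of replicate 2.

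Coding length was related to the fold change in the members and more so in other genes. Across the 81 members Spearman's rho of fold change with coding length was 0.279 (0.280 and 0.279 with the ratios of replicates 1 and 2), and across the 12542 protein-coding genes it was 0.589. Members are short, with a median coding length of 456 bases against 1440.0 in other protein-coding genes. Among genes with under 300 coding bases the median log2 fold change was -1.17 for 10 members and -1.06 for 221 other genes. From 300 to under 450 bases it was -0.74 for 28 members and -0.80 for 507 others, and from 450 to under 600 bases -0.64 for 19 and -0.70 for 698. At these lengths the members lay at the level of other mRNAs of the same coding length. From 600 to under 900 bases the medians were -0.14 for 20 members, of which 5 were enriched and 5 depleted, and -0.46 for 1652 others, and from 900 to under 1300 bases they were 0.39 for 4 members and -0.20 for 2402 others. Exonic length, the union of all annotated exons, showed no such relation among the members (rho = -0.064).

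**Figure D3:**
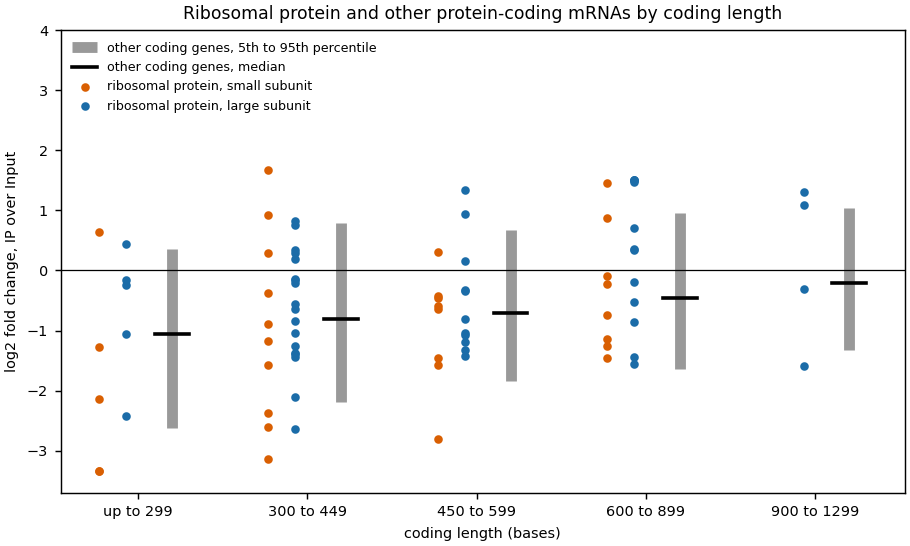
Log2 fold change of IP over Input by class of coding length in bases: orange points are small subunit and blue points large subunit mRNAs, grey bars run from the 5th to the 95th percentile of other protein-coding genes, and black lines are their medians. The medians of the other genes climb from -1.06 to -0.20 with length, and the ribosomal protein mRNAs spread around and beyond the grey bars in each class.

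Among the members, GAA content followed the fold change more closely than length did, and most closely where the GAA spans neighbouring codons. Counted in any frame per kilobase of coding sequence, GAA correlated with fold change at rho = 0.499 across the members (0.421 in the small and 0.490 in the large subunit), and at 0.246 across all protein-coding genes tested. GAA as a codon, for glutamate, correlated at 0.109, and GAA that starts at the second base of a codon at 0.0548. GAA across codon junctions, starting at the last base of a codon, correlated at 0.646 (0.653 and 0.619 in replicates 1 and 2, 0.586 in the small and 0.615 in the large subunit), and at 0.225 across all protein-coding genes. Across all protein-coding genes the junction did not stand out, as GAA codons had 0.217 and GAA at the second base 0.0975. Coding length had 0.589 there, above each of these GAA measures. The split by position was made after the values had been seen, and these are descriptions across genes that share libraries and base composition, without a test. Coding GC content (rho = -0.064) had no such relation.

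By junction GAA, the 27 members with the lowest content (0 to 15.2 per kilobase) included 0 enriched and 20 depleted, with a median log2 fold change of -1.27. The middle 27 (15.4 to 20.7 per kilobase) included 3 enriched and 10 depleted (median -0.64), and the highest 27 (21.2 to 40.7 per kilobase) included 6 enriched and 2 depleted (median 0.44). RPS28, with 0 junction GAA, and RPL15 (3.27 per kilobase, log2 fold change -1.43) stood at the low end. RPL35 (40.7 per kilobase, 0.83), RPL41 (40 per kilobase, -0.24) and RPL38 (38.1 per kilobase, 0.44) stood at the high end, none of them called. Of the highest 27, 17 were above 0 and 8 were below 0 in both replicates. The 8 included RPL22L1 (27.3 per kilobase) and RPL27 (22.1 per kilobase), both depleted. At the low end RPL32 (12.3 per kilobase) had a log2 fold change of 0.19.

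Junction GAA arises wherever a codon that ends in G precedes a codon that starts with AA, and the lysine codon AAG is common in these basic proteins. AAG made a median of 8.11% of the codons of members and 3.13% of those of other protein-coding genes, and junction GAA was at 18.8 against 9.504 per kilobase. Among the members the share of AAG codons correlated with the fold change at rho = 0.503 and that of all lysine codons at 0.509, whereas arginine codons, the other basic residue of these proteins, had rho = -0.042. Across all protein-coding genes tested, AAG codons had 0.211, lysine codons 0.242 and arginine codons 0.069. Coding length and junction GAA were nearly unrelated to each other (rho = 0.056). RPL19 had 14.3% AAG codons and RPL3 11.9%, compared with 3.57% in RPS29, 2.90% in RPS28 and 2.71% in RPSA. Members with still more AAG than RPL19 did not all follow this order: RPL35 (17.1%) had a log2 fold change of 0.83, but RPL41 (24%) had -0.24, RPL29 (17.6%) -0.81 and RPL36A (16.04%) -0.84, none of them called.

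Tandem GAA showed the same direction. Of the 48 members tested with GAAGAA in the coding sequence, 8 were enriched and 10 depleted (median log2 fold change -0.15), and of the 33 without it, 1 was enriched and 22 depleted (median -1.25). The enriched member without it was RPL14. GAAGAAGAA was present in 8 members (RPL6, RPL7, RPL13A, RPL22, RPL35, RPS15, RPS25 and RPS27A), of which RPL6 and RPL7 were enriched and 0 were depleted (median 0.59). GAAGAA was found in 59.3% of the members tested and in 70.5% of the protein-coding genes tested, and GAAGAAGAA in 9.88% and 12.5%. These shares depend on coding length, and members are shorter (median 456 against 1440 bases in other protein-coding genes). Per kilobase of coding sequence, GAA in any frame had a median of 31.4 in members and 22.8 in other protein-coding genes. The split of the members by GAAGAA was not matched for length either.

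**Figure D4:**
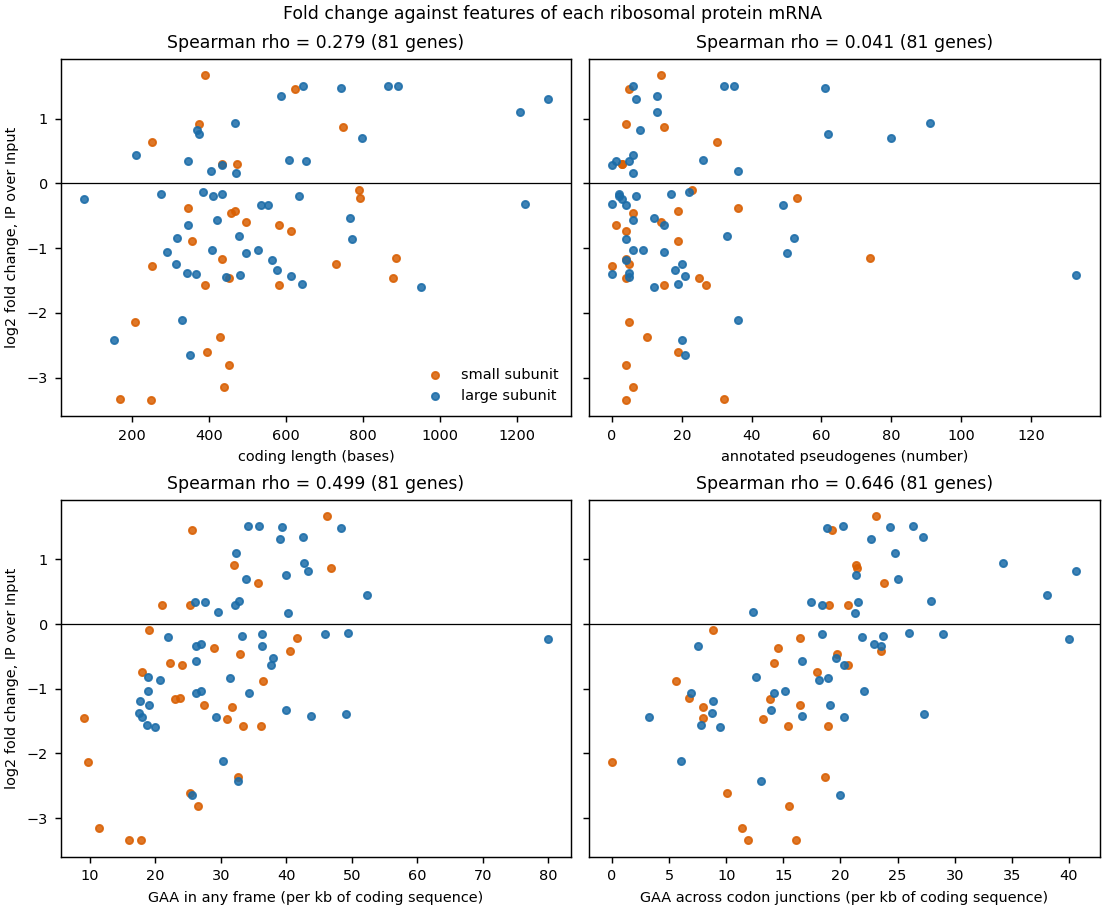
Log2 fold change of the 81 members (orange small, blue large subunit) against coding length in bases, number of annotated pseudogenes, GAA in any frame and GAA across codon junctions per kilobase of coding sequence. Spearman's rho stands above each panel (0.279, 0.041, 0.499 and 0.646): it is highest against junction GAA and lowest against pseudogene number.

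Pseudogenes bear on the counts because their sequence is close to that of the mRNA. The number of annotated pseudogenes per member ran from 0 to 133 among those tested and did not follow the fold change (rho = 0.041). Medians were -0.79 for the 4 tested members with none, -0.46 for 33 with 1 to 9, -0.97 for 26 with 10 to 29 and -0.28 for 18 with at least 30. RPL7, with 61 pseudogenes, and RPL5, with 35, were enriched, and RPS29, with 32, was depleted. Counts assigned to all pseudogenes of members came to 0.317% and 0.479% of the members' own counts in IP and to 0.655% and 1.27% in Input, and adding them to the parents left the same 9 and 32 members called. How reads with several alignments were handled is not given in the sources used here, so part of the reads of members with close copies may be missing from both.

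Hosts of intronic snoRNAs and members with a TOP start were set beside the other members. The 28 hosts of intronic snoRNAs had a median log2 fold change of -0.60 with 4 enriched and 12 depleted, and the 53 other members tested had -0.53 with 5 and 20. Members with a TOP start had a median of -0.74 (5 enriched and 25 depleted of 59), and those without had -0.32 (4 and 7 of 22).

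As a whole, the members took 3.50% and 2.83% of the counts of the IP libraries and 4.54% and 3.62% of those of the Inputs. The means were 3.16% ± 0.469 and 4.08% ± 0.654 (SD, n = 2), and the exact two-sided permutation test gave p = 0.333, the smallest p that 2 against 2 libraries allow. Summed TMM-scaled CPM pointed the other way, with log2 ratios of IP to Input of 0.27 and 0.20, so the direction of the total depends on the scaling. The 9 enriched members rose from 0.996% and 0.760% of the Input counts to 1.76% and 1.27% of the IP counts, and the 32 depleted members fell from 1.40% and 1.13% to 0.279% and 0.320%. These sums were chosen by the calls and describe how much RNA they cover.

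Other genes of the translation machinery were taken from lists of known function. Of 4 ribosomal proteins outside the naming rule, 0 were called, among them FAU with a log2 fold change of -0.81, RPL36AL of -0.23 and RACK1 of -0.23. Of 14 tested mRNAs of other translation factors and RNA-binding proteins with TOP tracts, NPM1 (1.96), a nucleolar chaperone, and NAP1L1 (1.70), a histone chaperone, were enriched and 0 were depleted, and the median was 0.70. EEF2, the elongation factor that moves the ribosome along (0.95), and EEF1A1, which delivers transfer RNA (0.71), were not called. Among 13 chaperones and nuclear importers of ribosomal proteins 4 were enriched, IPO5 (1.55), LTV1 (1.43), IPO7 (1.32) and KPNB1 (1.24), and PDCD2, a chaperone of RPS2, was depleted (-1.19), with a median of 0.91. Of 11 regulators of TOP mRNAs, MTOR was enriched (1.21), EIF4EBP2, a repressor of cap-dependent translation, was depleted (-1.79), and LARP1, which binds the TOP tract, had 0.65 and was not called. The lists were not matched for coding length, which correlated with the fold change at rho = 0.589 across protein-coding genes. Enriched genes of the lists had coding lengths from 882 (NPM1) to 7647 bases (MTOR), and the depleted had 360 (EIF4EBP2) and 1032 (PDCD2). Over these lists 7 of the 42 genes tested were enriched (16.7%, against 10.5% of all genes) and 2 depleted (4.76%, against 8.3%). The counts became 12 and 1 when IP replicate 2 was left out, 11 and 1 when Input replicate 1 was, 4 and 5 when Input replicate 2 was, and 1 and 7 with scaling by library size only.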

How the data were processed

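RNA immunoprecipitation sequencing (RIP-seq) was analysed in 2 ORC1-FLAG IP and 2 Input libraries of HCT116 nuclei. The authors deposited unnormalized counts of reads for each gene. Per the submitters' processing notes and the study's methods, these came from stranded total RNA libraries through Trimmomatic, STAR on hg19 (GRCh37) and featureCounts with an Ensembl annotation; the strand setting of the counting and the handling of multiple alignments are not given in the sources used here. Coordinates, coding sequences, snoRNAs and pseudogenes (by symbol) came from GENCODE v44 on GRCh38, another build, joined by Ensembl identifier.

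All 14645 genes kept by filterByExpr were fitted with edgeR 4.0.16 (R 4.3.3), with TMM scaling (factors 0.758 and 0.868 for IP, 1.19 and 1.28 for Input), the robust quasi-likelihood test and group as the only term. Adjusted p-values are Benjamini-Hochberg over all genes tested, and SE is the fold change divided by the root of F. The script was tested on simulated data. Replicate ratios used a pseudocount of 0.5 CPM. Reads have no molecular identifiers, and no spike-in was used, so fold changes are relative to the other RNAs of a library. The labels tie IP and Input of a number to the same RIP, and deviations of libraries with the same number correlated (Pearson r = 0.637), so the replicate block was an alternative, as were DESeq2 1.42.0, limma voom 3.58.1, glmTreat, other scalings, filters and pseudocounts, leaving out each library, and adding pseudogene counts.

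Named genes were the 9 highest and 9 lowest members with a mean of at least 5 CPM, a list of members of known function, and the paralogs with their parents. Members, lists and tests were chosen with earlier results of these data known. Some genes are not reported here by name or drawn in the plots that name genes, though they enter the counts and medians.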

Additional observations from a re-analysis of the deposited data

How the results depend on the processing

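The counts of 9 enriched and 32 depleted members stayed within 1.5 times the reported values with RLE and upper-quartile scaling, both count filters, DESeq2, limma voom, the replicate block, pseudogene counts added and ORC1 counts removed. Scaling by library size only gave 1 enriched member, 380 genes enriched and 3257 depleted in all, and 1 and 7 genes of the other lists. It moved the median of all genes by -0.60, compared with -0.17 for upper-quartile scaling (1080 genes enriched and 1542 depleted in all, 8 and 34 members), -0.34 for DESeq2 and -0.35 without a filter. glmTreat called 0 enriched and 0 depleted members, 0 and 1 genes in all (913 and 863 at an unadjusted p below 0.05), and 0 and 0 genes of the other lists (5 and 1). The replicate block raised depleted genes in all to 1957 and changed no other call of a named member. Leaving out a library gave 1 to 14 enriched and 23 to 36 depleted members, 4 to 12 enriched and 1 to 5 depleted genes of the other lists, medians of the members from -0.85 to -0.47, rho with coding length from 0.249 to 0.309, with GAA from 0.480 to 0.510 (0.4795 to 0.5095) and with pseudogene number from 0.0207 to 0.065. A lone library of a group is assumed there to vary like the other group. The difference between the subunits ran from -0.77 to -0.38.

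The median of the members was -0.5963 with RLE, -1.177 with library size only, -0.7385 with upper-quartile scaling, -0.5808 without a filter, -0.6134 with at least 1 CPM in 2 libraries, -0.5256 with DESeq2, -0.5727 with the replicate block, -0.6372 with pseudogene counts added, -0.6601 without ORC1 counts, and -0.5824 without paralogs or with a mean of at least 20 CPM. Spearman's rho with coding length was 0.2805 with upper-quartile scaling or the 1 CPM filter, 0.2886 without a filter, 0.2923 with DESeq2, 0.2748 with limma voom, 0.2767 with the replicate block, 0.2804 with pseudogene counts, 0.2766 without ORC1 counts, 0.2719 without paralogs, 0.28 above 20 CPM and -0.06436 with exonic length. Spearman's rho with GAA was 0.475 without a filter, 0.4803 with DESeq2, 0.5045 with limma voom, 0.5033 with the replicate block, 0.4903 with pseudogene counts, 0.5375 without paralogs, 0.4551 over the whole transcript, 0.1094 for GAA codons (position 1), 0.05485 at position 2 and 0.6456 at position 3. Spearman's rho with pseudogene number was 0.007641 without a filter and 0.01487 with DESeq2. The median ratio of replicate 2 was -0.5299 with a pseudocount of 0.1 and -0.4972 with 2. The positions, the 20 CPM limit and the removal of ORC1 counts were chosen after seeing the data.

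Signs turned for RPLP2 (-0.2563) and RPL26L1 (-0.3183) with library size only. Leaving out single libraries gave values on both sides of 0 for 6 named members: from -0.5374 to 0.0591 for RPL41 (above 0 without Input replicate 2), from -0.4889 to 0.2268 for RPS4X (above 0 without Input replicate 1 and, at 0.1799, without IP replicate 2), from -0.7615 to 0.1139 for RPL3L, from -0.0333 to 0.557 for RPL26L1, from -0.3658 to 0.1419 for RPL22 and from -0.5813 to 0.2148 for RPL26. The cause was not tested. Members under 10 CPM rest on few counts.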

Other observations

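Pseudogenes of the members were themselves counted, and 50 of them passed the count filter of the 1598 found in the table (803 had a count). Of these, 1 was enriched (2%, against 10.5% of all genes tested) and 8 were depleted (16%, against 8.3%), with a median log2 fold change of -0.24. RPL4P5, a copy of the enriched RPL4, was at 15.5 and 9.20 CPM in IP against 4.92 and 4.001 CPM in Input and was enriched by 1.46 (edgeR adjusted p = 0.0263). RPL10P3, a copy of the depleted RPL10, had 51 and 30 counts in IP and 183 and 95 in Input and was depleted (-2.16, edgeR adjusted p = 0.0121). The fold change of a pseudogene followed that of its parent at Spearman rho = 0.675 over the 50, although copies of the same parent share it and reads may be exchanged between parent and copy, which was not tested.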
